A study of Homo sapiens with 18 samples.

Results

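The 10 genes described here are transcriptional outputs of the ERK pathway that limit or relay its signal: the phosphatases DUSP4, DUSP5 and DUSP6, the Sprouty genes SPRY1, SPRY2 and SPRY4, the Spred genes SPRED1 and SPRED2, and the transcription factors ETV4 and ETV5. The members were chosen by name, as the array probes whose single gene symbol is on this list. Each of the 10 symbols has exactly 1 probe, among 17687 distinct symbols and 21448 probes in all. All samples come from OCI-AML3, a cell line from a human acute myeloid leukaemia, with a genotype given as wildtype in all 3 groups. That label is not read here as a statement about genes of the ERK pathway, whose mutations were not examined. Over 24 h the cells received either DMSO as the solvent control, RG7112 (2 µM) or HDM201 (500 nM). Both compounds are described as inhibitors of MDM2, the ubiquitin ligase that holds p53 protein low. Each group has 6 arrays of numbered biological replicates, 18 in all, at a single dose and time per compound. The doses differ between the compounds, and a single cell line was used. The series asks, by its title, about p53 and immunity against leukaemia after transplantation.

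In the ERK pathway a receptor activates RAS, which activates the kinases RAF, MEK and ERK in turn, and active ERK drives the transcription of genes that restrain the same chain. DUSP6 removes phosphate from ERK in the cytoplasm, DUSP4 and DUSP5 do so in the nucleus, and Sprouty and Spred proteins act upstream at the level of RAS and RAF. ETV4 and ETV5 are ETS family transcription factors of the PEA3 group. They are induced by ERK signalling and are repressed by CIC, a DNA-binding repressor that ERK signalling inactivates. Because transcripts of these genes follow ERK activity in many cell types, they are widely read as its output. DUSP5 has also been described as a p53 target in other cells.

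ETS factors bind DNA around the letters GGAA, so the stretch before the start site is shown for a phosphatase gene and a Sprouty gene. Their mean signals differed from DMSO in opposite directions here, but neither gene passed the test described below for either compound. The sequences are the 250 bases before the gene start from RefSeq, build GRCh38.p14. Capitals mark GGAA read on either strand, so TTCC on the printed strand is the same motif. The DUSP6 stretch lies at chr12:89352502-89352751 and the SPRY4 stretch at chr5:142324248-142324497, both on the minus strand and printed 5′ to 3′ in the sense of the gene.
DUSP6: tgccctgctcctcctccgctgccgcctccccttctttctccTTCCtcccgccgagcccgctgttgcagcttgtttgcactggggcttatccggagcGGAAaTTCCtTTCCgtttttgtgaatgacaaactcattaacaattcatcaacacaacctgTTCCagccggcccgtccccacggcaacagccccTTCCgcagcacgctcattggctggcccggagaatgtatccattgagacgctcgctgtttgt
SPRY4: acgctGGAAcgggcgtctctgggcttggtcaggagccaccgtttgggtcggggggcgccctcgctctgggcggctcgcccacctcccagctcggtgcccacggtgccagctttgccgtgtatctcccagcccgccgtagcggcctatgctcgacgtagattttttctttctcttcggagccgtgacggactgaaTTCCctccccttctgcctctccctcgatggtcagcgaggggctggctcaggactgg
The DUSP6 stretch holds 6 matches and the SPRY4 stretch 2, the most and the fewest among the stretches of the members. The others hold 3 to 5, with 5 and 4 for SPRY1, whose means lay below DMSO like those of SPRY4. A relation between matches and direction was not tested. Of 35116 such stretches in the RefSeq table, 92.7% hold at least 1 match, 76.5% at least 2 and 9.14% at least 6. The 4 octamers that fit the known CIC site were searched on both strands in the 10 stretches of the 6 members with an entry. TCAATGGA occurs once, in the DUSP6 stretch on the strand opposite to the one printed, and in 0.436% of all stretches. TGAATGAA, TGAATGGA and TCAATGAA were not found in the 10 and occur in 1.4%, 0.832% and 0.635% of all stretches. The AP-1 motif TGAGTCA and the CRE motif TGACGTCA were not found in the 10 either and occur in 4.2% and 1.65%. A match is a string of letters, not a bound site. DUSP4, DUSP5, ETV4 and ETV5 have no entry in the table.

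Values are log2 signals, changes are differences of group means on that scale, and a gene is said to have risen or fallen when its limma p, corrected with the Benjamini-Hochberg procedure across the whole set of 21448 probes, was under 0.05. Medians per array were 6.44 to 6.57 and lowest signals 2.66 to 2.85. Precision is limited by how many arrays there are. A signal of a culture does not tell fewer cells with a transcript from less of it per cell. The labels do not say how cultures were separated, so a p-value reflects only how these samples spread, which may be technical. CDKN1A and MDM2, induced by p53, rose 15.6-fold and 5.95-fold under RG7112 and 17.2-fold and 5.98-fold under HDM201. Of 7 measured markers of a myeloid line, 6 lay above the median probe, and MPO, the granule enzyme myeloperoxidase, lay at 5.16 to 5.92. Of 5 markers of T and NK cells 4 were dim, ranking above 7.92% to 28.9% of probes, with CD3D, CD3G and CD2 at 3.44 to 4.26, while NKG7 lay at 7.03 to 7.99, and none of the 5 passed for either compound. Replicates 1 to 3 differed from replicates 4 to 6 at 1712 probes (7.98%) with the group means in the model, so changes within these sets are given beside those of genes that rose or fell, replicates 1 to 3 first. The middle of the signal distribution was narrower for RG7112 replicate 3 (interquartile range 3.45) than elsewhere (3.70 to 3.91), and values without it are given where it changes a call or moves a difference by over 1.5 times.

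The feedback genes did not move as a block. ETV4 and DUSP5 fell under both compounds, and the other 8 genes did not pass under either. Of these, DUSP4, DUSP6 and SPRED2 had higher means than DMSO under both, while SPRY1, SPRY4, SPRED1 and ETV5 had lower ones. SPRY2 had a lower mean under HDM201 and was level with DMSO under RG7112. Under RG7112 0 of the 10 genes rose and 2 fell, where 7.9% of all probes rose and 9.61% fell (17.5% in either direction). Under HDM201 again 0 rose and 2 fell, where 9.16% of all probes rose and 9.64% fell (18.8% in either direction). In this fit these shares lie near the background and say nothing particular about the genes as a list. With the replicate number in the model more of the genes passed, as given at the end. The median change of the 10 genes was -0.22 under RG7112 and -0.17 under HDM201, beside 0.03 and 0.02 over all probes. The changes ranged from -0.91 to 0.40 under RG7112 and from -0.74 to 0.53 under HDM201. Both comparisons use the same DMSO arrays. The RG7112 and DMSO arrays overlapped for all 10 genes, where 9.9% of all probes did not overlap (4.29% higher and 5.61% lower). The HDM201 and DMSO arrays overlapped for 9 of the 10, where 13.6% of all probes did not overlap (6.63% higher and 6.92% lower).

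**Figure D1:**
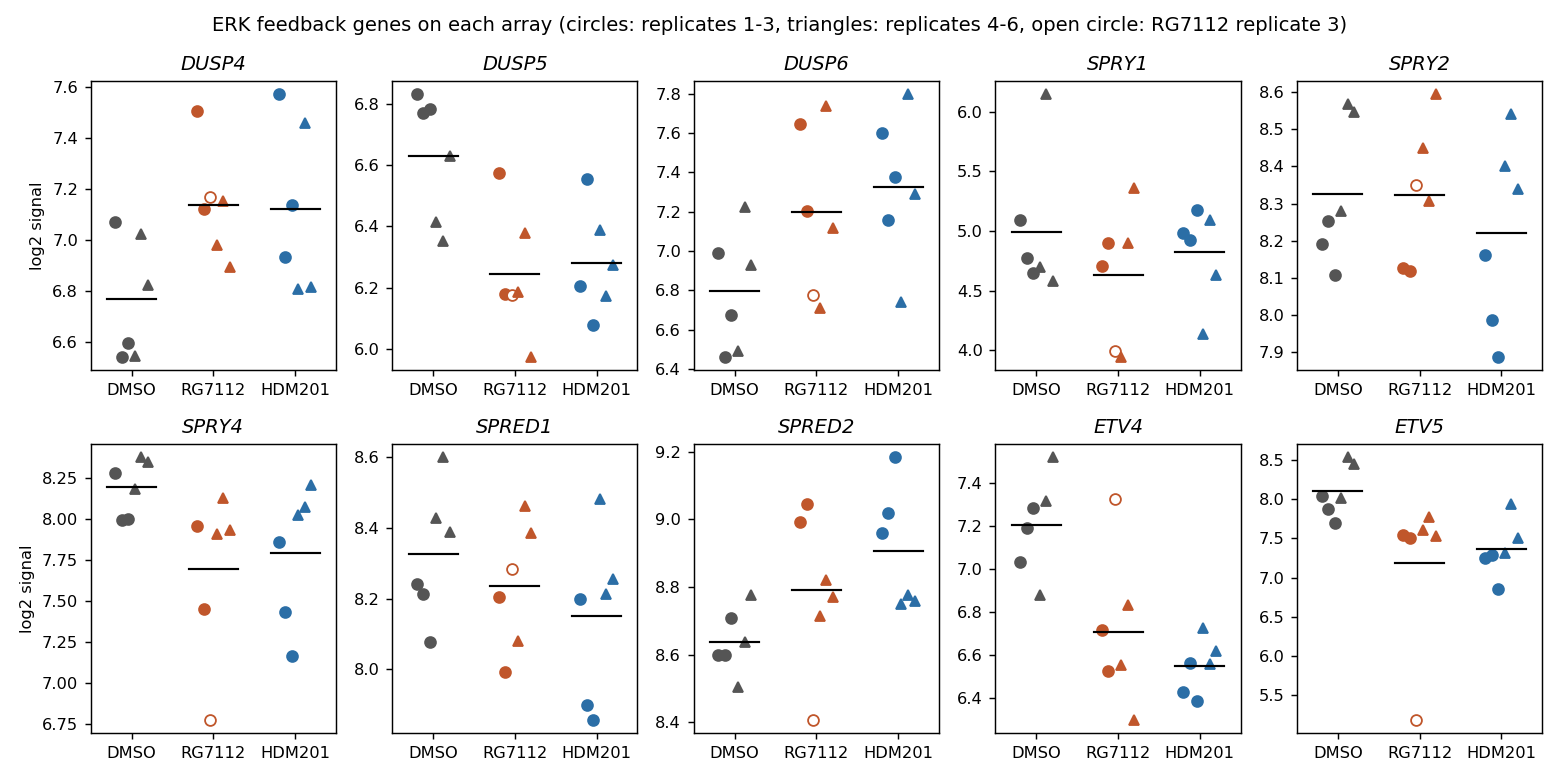
Log2 signal (vertical axis, scaled per gene) of the 10 feedback genes on each of the 18 arrays, by treatment group, with circles for replicates 1 to 3, triangles for replicates 4 to 6, an open circle for RG7112 replicate 3 and a bar at the mean of each group of 6 arrays. All HDM201 arrays lie below all DMSO arrays for ETV4, and the open circle stands far below the rest for ETV5 and SPRY4 and within the DMSO range for ETV4.

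In the main fit, which leaves out replicate numbers, ETV4 had the smallest limma adjusted p of the 10 genes for both compounds. With the replicate number in the model another gene did, as given at the end. The ETV4 signal ran from 6.88 to 7.52 with a median of 7.24 on the DMSO arrays, from 6.30 to 7.33 with a median of 6.64 under RG7112, and from 6.39 to 6.73 with a median of 6.56 under HDM201. The HDM201 arrays did not overlap the DMSO arrays, while RG7112 replicate 3, at 7.33, lay inside the DMSO range and the other RG7112 arrays lay below it. ETV4 fell 1.41-fold under RG7112 (log2 change -0.50 ± 0.14 SE, n = 6, limma adjusted p = 0.0139; -0.32 in the set of replicates 1 to 3 and -0.68 in the set of 4 to 6). It fell 1.58-fold under HDM201 (-0.66 ± 0.14, n = 6, limma adjusted p = 0.00127; -0.71 and -0.60 within the sets). Without RG7112 replicate 3 the RG7112 change was -0.62 (limma adjusted p = 4.32e-04). Within replicates 1 to 3 alone, which include that array, the RG7112 change did not pass (limma adjusted p = 0.343).

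ETV5, the close relative of ETV4, had the largest mean differences of the list, and 1 array stood far below the rest. Its DMSO signals ran from 7.70 to 8.54 with a median of 8.02. Under RG7112 replicate 3 lay at 5.19 and the other arrays at 7.50 to 7.77, and under HDM201 the arrays ran from 6.86 to 7.93 with a median of 7.30. In each treated group only replicate 5 reached into the DMSO range. The difference was -0.91 ± 0.32 for RG7112 (n = 6, limma adjusted p = 0.0525; -1.13 and -0.70 within the sets) and -0.74 ± 0.32 for HDM201 (n = 6, limma adjusted p = 0.118; -0.74 and -0.75 within the sets), and neither passed. Without RG7112 replicate 3 the RG7112 difference was -0.51 ± 0.16 and passed (limma adjusted p = 0.0321). The HDM201 difference kept its size without that array, since it enters only the shared estimate of the spread, and the SE dropped to 0.15 (limma adjusted p = 0.00104). With only the DMSO and HDM201 arrays in the model it also passed (limma adjusted p = 0.00396). With RG7112 replicate 3 kept, the RG7112 difference passed without RG7112 replicate 4 (limma adjusted p = 0.0437) or 5 (0.0385), with array medians subtracted (0.0408), without the dimmest probes (0.0442) and with the replicate set as a term (0.0221).

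Of the 3 phosphatase genes only DUSP5 passed the test. Its signals ran from 6.35 to 6.83 with a median of 6.70 under DMSO, from 5.97 to 6.58 with a median of 6.18 under RG7112, and from 6.08 to 6.55 with a median of 6.24 under HDM201. The groups overlapped: DMSO replicates 4 and 5 lay at 6.41 and 6.35, while RG7112 replicate 1 and HDM201 replicate 2 lay at 6.58 and 6.55. DUSP5 fell 1.31-fold under RG7112 (-0.39 ± 0.11, n = 6, limma adjusted p = 0.0183; by set, -0.48 and -0.29). It fell 1.28-fold under HDM201 (-0.35 ± 0.11, n = 6, limma adjusted p = 0.0282; -0.52 and -0.19 within the sets). The RG7112 call held with any 1 array left out. The HDM201 call was lost without DMSO replicates 1, 2 or 3 or HDM201 replicates 1, 3 or 5 (limma adjusted p from 0.0584 to 0.075). Within either set alone, with 3 arrays a group, DUSP5 passed for neither compound.

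DUSP6, the cytoplasmic ERK phosphatase, had higher means under both compounds and wide spread within groups. Its signal ran from 6.46 to 7.22 with a median of 6.80 under DMSO, from 6.71 to 7.74 with a median of 7.16 under RG7112, and from 6.74 to 7.80 with a median of 7.33 under HDM201. The groups overlapped over much of their range. The difference was 0.40 ± 0.19 for RG7112 (n = 6, limma adjusted p = 0.157; 0.50 and 0.31 within the sets) and 0.53 ± 0.19 for HDM201 (n = 6, limma adjusted p = 0.0570; 0.67 and 0.39 within the sets). The HDM201 difference passed without DMSO replicate 5 (limma adjusted p = 0.0323), RG7112 replicates 3 (0.0409), 4 (0.0471) or 5 (0.0439), or HDM201 replicate 4 (0.0164). Of 13 alternatives other than leaving out 1 array it passed in 6 and not in 7. Those passed included array weights (limma adjusted p = 0.0207), only the DMSO and HDM201 arrays (0.0285) and leaving out the dimmest probes (0.0475).

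DUSP4, a nuclear phosphatase, ran from 6.54 to 7.07 with a median of 6.71 under DMSO, from 6.90 to 7.51 with a median of 7.14 under RG7112 and from 6.81 to 7.57 with a median of 7.04 under HDM201. The difference was 0.37 ± 0.14 for RG7112 (n = 6, limma adjusted p = 0.0777; 0.53 and 0.21 within the sets) and 0.35 ± 0.14 for HDM201 (n = 6, limma adjusted p = 0.0925; 0.48 and 0.23 within the sets). Neither passed, and the RG7112 difference passed only without DMSO replicate 1 among the fits with 1 array left out (limma adjusted p = 0.0470). The HDM201 difference passed in 3 of the 13 other alternatives, among them array weights (limma adjusted p = 0.0405).

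**Figure D2:**
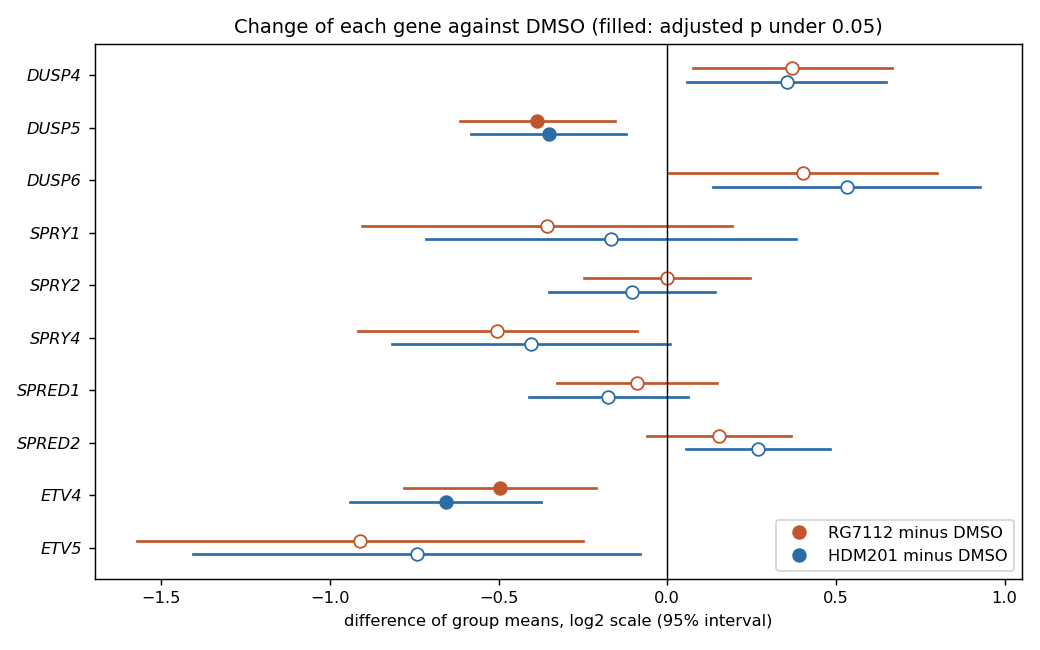
Difference of group means from DMSO on the log2 scale (horizontal axis) for each of the 10 feedback genes, with 95% intervals of the linear model, RG7112 above HDM201 for each gene and filled points for an adjusted p under 0.05. Only ETV4 and DUSP5 are filled, the points of DUSP4, DUSP6 and SPRED2 lie above 0 for both compounds, and ETV5 has the widest intervals.

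Among the Sprouty genes, whose products hold back RAS and RAF activation, SPRY4 had the means farthest below DMSO. It ran from 7.99 to 8.38 with a median of 8.23 under DMSO, from 6.78 to 8.12 with a median of 7.92 under RG7112, and from 7.16 to 8.21 with a median of 7.94 under HDM201. The low ends of both treated groups were replicates 2 and 3, at 7.45 and 6.78 under RG7112 and 7.43 and 7.16 under HDM201. The difference was -0.50 ± 0.20 for RG7112 (n = 6, limma adjusted p = 0.0868; -0.70 and -0.31 within the sets) and -0.40 ± 0.20 for HDM201 (n = 6, limma adjusted p = 0.184; -0.61 and -0.20 within the sets). Without RG7112 replicate 3 the RG7112 difference was -0.32 (limma adjusted p = 0.203), and with the replicate set as a term and all arrays it passed (0.0228).

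SPRY2 lay at 8.11 to 8.57 under DMSO, 8.12 to 8.59 under RG7112 and 7.89 to 8.54 under HDM201. The groups covered nearly the same range. The 95% interval of its difference from DMSO was -0.25 to 0.25 for RG7112 and -0.35 to 0.14 for HDM201. SPRY1 was dim, with a mean of 4.81 over the 18 arrays and a rank above 27.7% of probes, and uneven. DMSO replicate 5 lay at 6.15, above the remaining 5 at 4.58 to 5.09, while the treated arrays ran from 3.94 to 5.36. Its intervals were -0.91 to 0.19 for RG7112 and -0.72 to 0.38 for HDM201, with differences of -0.36 and -0.17. Without DMSO replicate 5 they were -0.13 and 0.06, the latter with its sign changed. Without RG7112 replicate 3 the RG7112 difference was -0.23, without RG7112 replicate 4 it was -0.22, and without HDM201 replicate 4 the HDM201 difference was -0.03.

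The Spred genes, which inhibit RAS through the neurofibromin NF1, differed little. SPRED2 ran from 8.51 to 8.78 under DMSO, from 8.41 to 9.04 under RG7112 and from 8.75 to 9.18 under HDM201. The 3 highest HDM201 arrays, at 8.96 to 9.18, were replicates 1 to 3, and replicates 4 to 6 lay at 8.75 to 8.78, at the top of the DMSO range. The difference was 0.27 ± 0.10 for HDM201 (n = 6, limma adjusted p = 0.0731; 0.42 and 0.12 within the sets) and 0.15 ± 0.10 for RG7112 (n = 6, limma adjusted p = 0.328). The HDM201 difference passed without RG7112 replicate 3 (limma adjusted p = 0.0248). In the 13 alternatives other than leaving out 1 array it passed in 5 and not in 8. Those passed included array weights (limma adjusted p = 0.0233), a further quantile normalization (0.0257) and only the DMSO and HDM201 arrays (0.0300). SPRED1 ran from 8.08 to 8.60 under DMSO, 7.99 to 8.46 under RG7112 and 7.86 to 8.48 under HDM201, with intervals of -0.33 to 0.15 and -0.41 to 0.06.

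The compounds were compared directly at their different doses. HDM201 minus RG7112 passed for 0 of the 10 genes and for 0 of all 21448 probes by limma, of which 749 had an unadjusted p under 0.05 (percent called 0). The arrays of the compounds overlapped for all 10 genes, as for all but 0.0839% of probes (0.042% higher and 0.042% lower). The differences between the compounds ran from -0.16 for ETV4 (95% interval -0.44 to 0.12) to 0.19 for SPRY1 (-0.36 to 0.74). The intervals for the phosphatases were -0.31 to 0.28 for DUSP4, -0.20 to 0.26 for DUSP5 and -0.27 to 0.53 for DUSP6. For ETV5 the interval was -0.49 to 0.83. Without RG7112 replicate 3 the differences were -0.04 for ETV4 and 0.06 for SPRY1. For DUSP6 the difference went from 0.13 to 0.04 and for SPRED2 from 0.12 to 0.04. It changed sign for ETV5, from 0.17 to -0.23, and for SPRY4, from 0.10 to -0.08. For DUSP4 and DUSP5 it was -0.01 and 0.02, beside -0.02 and 0.03 with all arrays. None of the 10 genes passed without that array.

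The sets of replicates differed for 3 of the 10 genes with the group means in the model. Replicates 4 to 6 were higher than 1 to 3 by 0.32 ± 0.07 for SPRY2 (n = 9 arrays a set, limma adjusted p = 0.0049), by 0.47 ± 0.12 for SPRY4 (limma adjusted p = 0.0218) and by 0.26 ± 0.07 for SPRED1 (limma adjusted p = 0.0335). Over all probes 7.98% differed. ETV5 was higher by 0.60 ± 0.22 and did not pass (limma adjusted p = 0.118), and ETV4, DUSP6 and SPRY1 differed by -0.02 to 0.03. The sets follow the replicate numbers and were chosen with earlier results of these data known. The change against DMSO differed between the sets for none of the 10 genes by limma's interaction test (adjusted p from 0.851 to 0.999), where 8 of all probes passed for RG7112 and 32 for HDM201.

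Within groups some of the genes rose and fell together from array to array. DUSP4 and DUSP6 were both highest on replicates 1 and 5 of DMSO and HDM201, at 6.99 and 7.22 for DUSP6 under DMSO and at 7.60 and 7.80 under HDM201. Over the 6 DMSO arrays their Pearson r was 0.93 (exact permutation p = 0.0194) and Spearman rho 0.94 (exact permutation p = 0.0167). Over the HDM201 arrays r was 0.84 (exact permutation p = 0.0278) and rho 0.89 (0.0333), and over the RG7112 arrays r was 0.57 (0.239) and rho 0.43 (0.419). SPRY4 and ETV5 gave r of 0.91 under DMSO (exact permutation p = 0.0194), 0.92 under RG7112 (0.00694) and 0.76 under HDM201 (0.0681), and rho of 0.94 (0.0167), 0.83 (0.0583) and 0.89 (0.0333). These pairs were picked after their values were seen, from 135 relations of 45 pairs in 3 groups. None of the 135 passed after adjustment, and the adjusted p of the 6 named ran from 0.219 to 0.544 for r and from 0.328 to 0.735 for rho, two-sided. Without the 2 arrays farthest from the median of DUSP4, r was 0.97, 0.50 and 0.62 for DMSO, RG7112 and HDM201, and without those farthest for SPRY4 it was 0.91, 0.89 and 0.47.

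**Figure D3:**
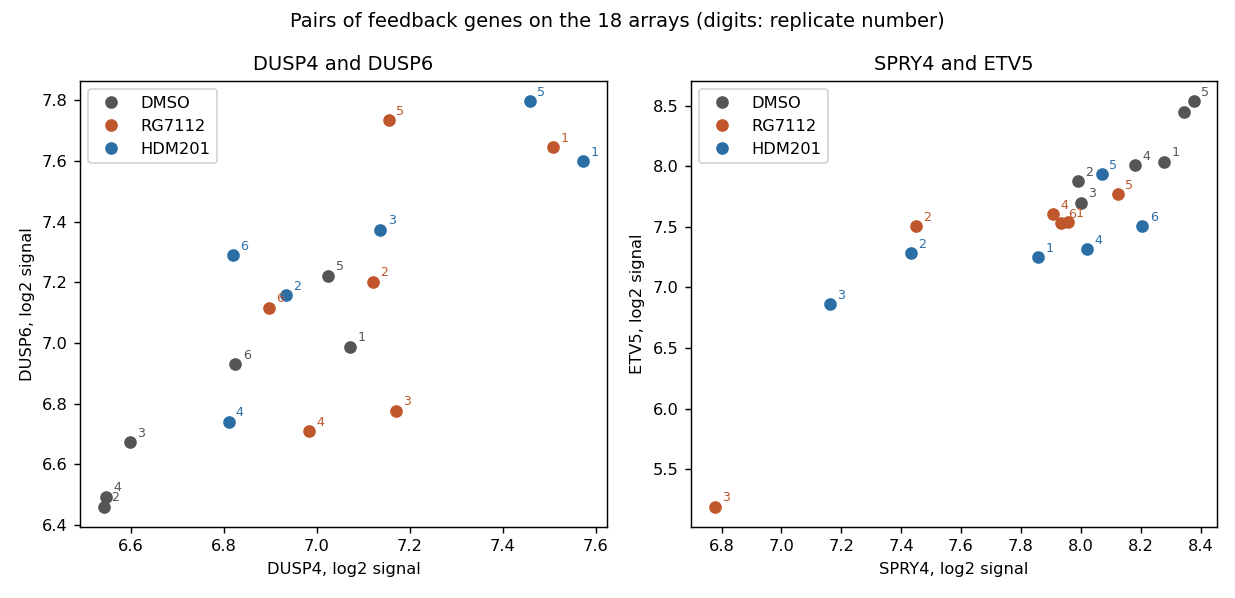
Log2 signals of DUSP4 and DUSP6 (left) and of SPRY4 and ETV5 (right) on the 18 arrays, coloured by group, with the replicate number beside each point. Replicates 1 and 5 stand at the upper right of the left plot within DMSO and HDM201, and RG7112 replicate 3 stands alone at the lower left of the right plot, at 6.78 for SPRY4 and 5.19 for ETV5.

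The genes whose signals were most like those of the feedback genes over the 18 arrays are given by Pearson r, as a description that includes the treatment differences. For DUSP6 they were ERRFI1 (0.93), ZFP36L1 (0.92) and IL1B (0.91), and ERRFI1 encodes MIG6, a feedback inhibitor of the EGF receptor. For DUSP4 they were CXCL8 (0.90), TGFBR2 (0.88) and PPP1R15A (0.88), and CXCL8 is a chemokine. For ETV4 they were the histone genes H3C10 (0.91) and H2BC26 (0.89) and XPO1 (0.89), the nuclear export receptor. For DUSP5 they were RIBC2 (0.84), ZBTB47 (0.83) and PKMYT1 (0.81), the last a kinase that restrains entry into mitosis. For ETV5 they were HPS3, IFI16 and ERO1A (all 0.96), where RG7112 replicate 3 lies far from the other arrays for ETV5. For SPRY4 they were CAMK2N1 (0.98), LY86 (0.96) and VIM (0.96), and RG7112 replicate 3 is also its lowest array, at 6.78. For SPRED2 they were RB1, MAP1LC3B and DCAKD (all 0.93), and for SPRED1 SLC37A3 (0.85), PCID2 (0.82) and PAN3 (0.82). For SPRY2 they were ZFYVE9 (0.90), ZMYM2 (0.89) and SMO (0.88), and for SPRY1 ZNF292 (0.82), KLRC2 (0.78) and OSMR (0.78). DMSO replicate 5 lies far above the other arrays for SPRY1, at 6.15. With the means of each group and set removed, 3 of these genes stayed among the 3 most like their member: IL1B for DUSP6 (0.94), CAMK2N1 for SPRY4 (0.95) and KLRC2 for SPRY1 (0.88).

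In the cascade that feeds these genes, KSR1 had the largest change for both compounds. Of 24 measured genes of the RAS-ERK cascade 5 rose, 3 fell and 16 did not pass under RG7112, and 5 rose, 2 fell and 17 did not pass under HDM201, with median changes of -0.09 and -0.03, where 17.5% and 18.8% of all probes passed. KSR1, a scaffold that holds RAF, MEK and ERK together, ran from 7.16 to 7.49 under DMSO, from 7.94 to 8.57 under RG7112 and from 8.22 to 8.85 under HDM201, with no overlap of either compound with DMSO. It rose 1.97-fold (0.98 ± 0.12, n = 6, limma adjusted p = 6.43e-06; 1.18 and 0.77 within the sets) under RG7112 and 2.43-fold under HDM201 (1.28 ± 0.12, n = 6, limma adjusted p = 1.34e-07; 1.55 and 1.01 within the sets). RPS6KA1, which encodes the ERK-activated kinase RSK1, rose 1.54-fold (0.82 and 0.42 within the sets) and 1.74-fold (1.01 and 0.59). SHC1, an adaptor between receptors and RAS, rose 1.51-fold (0.70 and 0.48 within the sets) and 1.67-fold (0.91 and 0.56). HRAS, a RAS gene, rose 1.43-fold and 1.44-fold (limma adjusted p = 0.0440 and 0.0347), calls lost when any of 11 arrays was left out for RG7112 and any of 7 for HDM201 (limma adjusted p up to 0.0931 and 0.0818). Under RG7112 it changed by 0.87 in the first set and by 0.15 in the other, which did not pass alone (limma adjusted p = 0.508), and 0.33 without RG7112 replicate 3 (0.0746). Its HDM201 changes were 0.68 and 0.37 within the sets, and replicates 4 to 6 alone did not pass (0.0684). GAB2, an adaptor, did not pass under RG7112, where it had the widest difference of such genes (-0.30 ± 0.14, limma adjusted p = 0.149; -0.17 without RG7112 replicate 3, and -0.40 with a pass at 0.0372 without RG7112 replicate 1), and SOS2, a RAS exchange factor, did not under HDM201 (0.34 ± 0.14, limma adjusted p = 0.110; 0.0418 without HDM201 replicate 6).

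Among the 7 other MAP kinase phosphatases 1 rose, 1 fell and 5 did not pass under RG7112, and 2 rose, 1 fell and 4 did not pass under HDM201 (median changes 0.09 and -0.12, beside 17.5% and 18.8% of all probes). DUSP16, which acts mainly on the kinases JNK and p38, rose 2.82-fold (95% interval 0.93 to 2.06 on the log2 scale, n = 6, limma adjusted p = 4.65e-04; 1.74 and 1.26 within the sets) under RG7112 and 2.87-fold under HDM201 (1.52 ± 0.27, n = 6, limma adjusted p = 2.92e-04; 1.72 and 1.33 within the sets). DUSP10, another phosphatase of JNK and p38, fell by 0.42 under RG7112 (limma adjusted p = 0.0468; -0.51 and -0.33 within the sets), with replicate 3 at 5.87 and the other RG7112 arrays at 6.61 to 6.77, and the call was lost without that array (-0.28, limma adjusted p = 0.0895) and without any of 10 others. DUSP9, a cytoplasmic ERK phosphatase like DUSP6, fell by 0.63 under HDM201 (limma adjusted p = 0.0235; -0.24 and -1.02 within the sets), a call lost without DMSO replicates 4, 5 or 6 or HDM201 replicate 2 (limma adjusted p from 0.0511 to 0.0691). It did not pass in replicates 1 to 3 alone (limma adjusted p = 0.441). Under RG7112 DUSP9 differed by -0.46 ± 0.19 (limma adjusted p = 0.110; -0.04 and -0.87 within the sets, of which replicates 4 to 6 alone passed at 0.00861), and by -0.30 without DMSO replicate 5. It also passed with the replicate set as a term (limma adjusted p = 0.0459). DUSP8 rose by 0.42 under HDM201 (limma adjusted p = 0.0202; 0.60 and 0.25 within the sets), a call lost without DMSO replicate 2 or HDM201 replicates 2 or 3 (0.0546 to 0.0608), and DUSP7 differed by 0.34 ± 0.13 (limma adjusted p = 0.0743). DUSP7 passed without RG7112 replicate 3 (limma adjusted p = 0.0196) or HDM201 replicate 6 (0.0402).

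None of the 5 other feedback inhibitors passed under either compound (median changes 0.14 and 0.20, beside 17.5% and 18.8% of all probes). SPRY3, a further Sprouty gene, differed by 0.44 ± 0.17 under RG7112 (limma adjusted p = 0.0733). It passed without DMSO replicate 1 (limma adjusted p = 0.0345) or RG7112 replicate 2 (0.0497), and was 0.27 without RG7112 replicate 1. ERRFI1 differed by 0.65 ± 0.29 under HDM201 (limma adjusted p = 0.145; 0.0456 without DMSO replicate 5).

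Of 12 genes for other ETS factors, CIC and its partners ATXN1 and ATXN1L 2 rose, 3 fell and 7 did not pass under RG7112, and 4 rose, 2 fell and 6 did not pass under HDM201 (median changes -0.04 and 0.11, beside 17.5% and 18.8% of all probes). CIC, the repressor of ETV4 and ETV5, rose 1.39-fold (0.48 ± 0.09, n = 6, limma adjusted p = 7.62e-04; 0.41 and 0.54 within the sets) under RG7112 and 1.48-fold under HDM201 (0.56 ± 0.09, n = 6, limma adjusted p = 1.05e-04; 0.58 and 0.55 within the sets). Within replicates 1 to 3 alone the RG7112 change of CIC did not pass (limma adjusted p = 0.0537). ETS2, an ETS factor that ERK phosphorylates, fell 1.73-fold and 1.86-fold (-0.79 ± 0.10 and -0.90 ± 0.10, limma adjusted p = 5.43e-06 and 7.13e-07; -0.88 and -0.71, and -1.06 and -0.74 within the sets). ETS1, its relative, rose 1.34-fold (0.63 and 0.21 within the sets) and 1.33-fold (0.48 and 0.33). The ETS1 calls were lost without RG7112 replicate 1 for RG7112 (limma adjusted p = 0.0538) and without HDM201 replicates 1 (0.0606) or 2 (0.055) for HDM201. They were also lost within replicates 4 to 6 alone for RG7112 (limma adjusted p = 0.211) and within 1 to 3 alone for HDM201 (0.0512). ELK1, an ERK-activated factor at serum response genes, fell 1.42-fold under RG7112 (log2 change -0.51, limma adjusted p = 0.0448; -0.78 and -0.24 within the sets), with replicate 3 at 7.67 and the others at 8.86 to 9.20. Its call was lost when any of 14 arrays was left out (limma adjusted p up to 0.0805). Without RG7112 replicate 3 its change was -0.29 and passed (limma adjusted p = 0.00931). ETV3, an ETS repressor, rose 1.27-fold under HDM201 (0.42 and 0.28 within the sets), and replicates 4 to 6 alone did not pass (limma adjusted p = 0.0716). ETV1, the third member of the PEA3 group, differed by -0.49 ± 0.29 and -0.41 ± 0.29 (limma adjusted p = 0.258 and 0.383).

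Single genes among the other transcripts read as ERK output had changes above 1 on the log2 scale. Of 16 such genes 5 rose, 1 fell and 10 did not pass under RG7112, and 6 rose, 1 fell and 9 did not pass under HDM201 (median changes 0.16 and 0.22, beside 17.5% and 18.8% of all probes). IER3, a stress-induced survival gene, rose 3.13-fold and 4.06-fold (limma adjusted p = 0.00108 and 9.73e-05; 2.23 and 1.06, and 2.78 and 1.27 within the sets). LIF, a cytokine that p53 also induces, rose 3.24-fold and 3.32-fold (limma adjusted p = 2.14e-05 and 1.04e-05; 2.01 and 1.39, and 1.98 and 1.49 within the sets). EGR1, an immediate early factor, rose 2.40-fold and 3.14-fold (limma adjusted p = 2.79e-04 and 9.41e-06; 1.36 and 1.17, and 1.92 and 1.39 within the sets). EPHA2, a receptor tyrosine kinase, rose 2.53-fold and 3.32-fold (limma adjusted p = 0.00396 and 2.89e-04), with RG7112 changes of 1.93 and 0.74 within the sets and HDM201 changes of 2.75 and 0.71, the last not passing alone (0.0505). FOS, an immediate early gene, differed by 0.73 ± 0.28 and 0.79 ± 0.28 (limma adjusted p = 0.0773 and 0.0523). It passed for RG7112 without RG7112 replicates 4 (0.0241) or 6 (0.0257), and for HDM201 without any of 7 arrays (down to 0.0232).

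Of 12 growth factor and cytokine receptors 1 fell and 11 did not pass under RG7112, and 2 rose, 2 fell and 8 did not pass under HDM201 (median changes -0.03 and 0.03, beside 17.5% and 18.8% of all probes). FLT3, a receptor that feeds RAS in myeloid progenitors, fell 2.26-fold (-1.17 ± 0.26, n = 6, limma adjusted p = 0.00302; -1.50 and -0.85 within the sets) under RG7112 and 2.31-fold under HDM201 (-1.21 ± 0.26, n = 6, limma adjusted p = 0.00194; -1.54 and -0.88 within the sets). Under HDM201 CSF2RA, the alpha chain of the GM-CSF receptor, rose 1.65-fold, by 1.15 within replicates 1 to 3 and 0.30 within 4 to 6, where it did not pass alone (limma adjusted p = 0.251). CSF3R, the G-CSF receptor, rose 1.56-fold, by 0.57 within replicates 1 to 3, where it did not pass alone (limma adjusted p = 0.238), and 0.71 within 4 to 6. FGFR1 fell 1.27-fold (-0.37 and -0.32 within the sets), a call lost without DMSO replicate 5 (limma adjusted p = 0.0505) or HDM201 replicate 3 (0.0539). Under RG7112 CSF2RA differed by 0.50 ± 0.19 and passed only without HDM201 replicate 6 among the fits with 1 array left out (limma adjusted p = 0.0715 with all arrays and 0.0311 without). CSF2RB, the shared beta chain, differed by 0.15 ± 0.12 under HDM201 (limma adjusted p = 0.455).

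**Figure D4:**
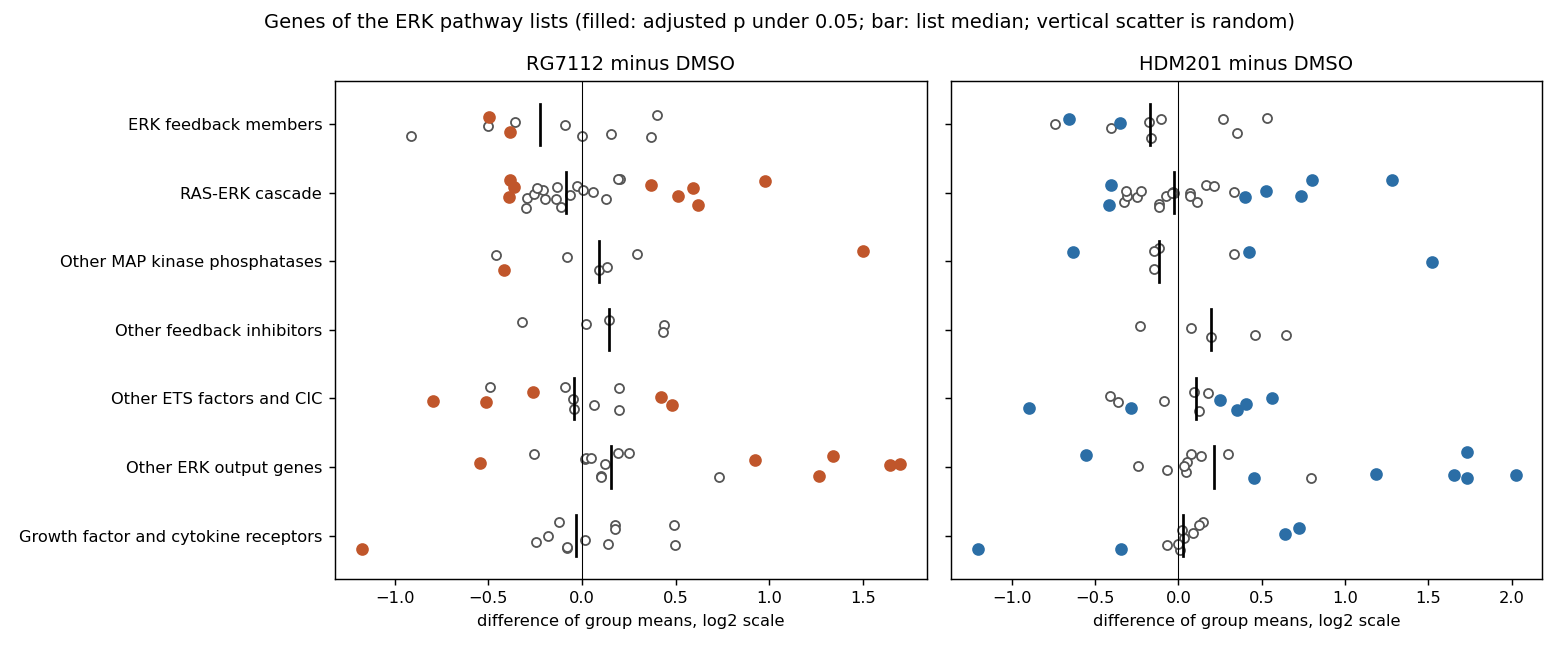
Difference of group means from DMSO on the log2 scale (horizontal axis) for every measured gene of the feedback list and the 6 other lists, RG7112 on the left and HDM201 on the right, with filled points for an adjusted p under 0.05 and a bar at each list's median. The feedback genes lie between -0.91 and 0.53, while single genes of other lists, such as IER3 at 2.02 under HDM201, lie farther out.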

How the data were processed

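OCI-AML3 RNA from 18 samples in 3 groups of 6 was measured on arrays. The values are on the log2 scale as deposited, from RMA in oligo per the submitters' processing notes. For versions and the annotation's genome build: not given in the sources used here. All 18 columns were used. Of 21448 probes 17709 have 1 gene symbol, 0 several and 3739 none in the annotation table, and the probe with the highest mean stands for a symbol.

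A linear model with a mean per group ran in limma 3.58.1 (R 4.3.3, default empirical Bayes), with Benjamini-Hochberg adjustment over all probes. The fit was tested on simulated data. From each list the text names up to 4 changed genes with the largest differences and the largest difference that did not pass, per comparison with DMSO, plus the 3 genes most like each member shown. The members and lists were chosen with earlier results of these data known. Some listed genes were not analysed here. Alternatives covered the prior, array weights, dim probes, centring, quantile normalization, the arrays in the model, replicate number and set, the probe of a symbol, and each array left out in turn.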

Additional observations from a re-analysis of the deposited data

Results flagged for a closer look

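Among the 41 named genes in 3 groups of 6 arrays each, 8 single values stood apart from their group by more than Dixon's criterion allows, which chance alone meets in about 1 of 20 groups, and 123 groups were looked at. ETV5 lay at 5.19 on RG7112 replicate 3 against 7.50 to 7.77 on the other RG7112 arrays. On the same array DUSP10 lay at 5.87 against 6.61 to 6.77, and ELK1 at 7.67 against 8.86 to 9.20. SPRY1 lay at 6.15 on DMSO replicate 5 against 4.58 to 5.09, and on that array ERRFI1 lay at 9.76 against 8.42 to 8.91. GAB2 lay at 4.56 on HDM201 replicate 3 against 4.84 to 4.93. DUSP9 lay at 6.40 on HDM201 replicate 2 against 6.76 to 6.95. SPRY3 lay at 6.20 on RG7112 replicate 1 against 5.05 to 5.30.

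The HDM201 change of EPHA2 was larger by 2.04 within replicates 1 to 3 than within 4 to 6 (2.75 against 0.71, limma interaction test, adjusted p = 0.0131 over all probes).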

How the results depend on the processing

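With 10 genes and 2 calls a comparison, counts moved easily. The HDM201 minus RG7112 count was 0 in all 31 alternatives. The share of all probes passing in the same setting stands in brackets. For RG7112 against DMSO the count of changed genes was 2 to 3 with 1 array left out (14.3% to 19%), 4 with the replicate set as a term (20.8%) and 0 within replicates 1 to 3 alone (9.2%). For HDM201 against DMSO it was 1 to 5 with 1 array left out (15.7% to 24.3%), 6 with array weights (25.9%), 5 with only the 12 arrays compared (23.9%) and 1 within replicates 1 to 3 alone (11.7%). ETV4 passed for HDM201 in all 31 alternatives and for RG7112 in all but replicates 1 to 3 alone. A dim probe limits SPRY1.

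The replicate number did not meet the criterion for pairing, which was a correlation above 0.1 in every pair of same-numbered arrays. Their deviations from the group means correlated at 0.02 to 0.44 over all probes, above 0.1 in 16 of 18 pairs. Of the 18 arrays 14 correlated best with their own number. With a replicate block 6 of the 10 genes passed for RG7112 (22.3% of all probes) and 6 for HDM201 (22.7%), and the counts over all probes went from 3757 to 4780 and from 4032 to 4866. They were DUSP4, DUSP5, DUSP6, SPRY4, ETV4 and ETV5 for both compounds. With the block and RG7112 replicate 3 left out, an alternative chosen after seeing the data, SPRED2 joined them and 7 passed for each (22.5% and 29.2%). With the block and all arrays, SPRY4 had the smallest limma adjusted p of the 10 genes for RG7112 (0.00299, beside 0.0172 for ETV4). For HDM201 DUSP6 had the smallest (limma adjusted p = 5.57e-04, beside 0.00219 for ETV4).

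Differences that did not pass changed sign in some settings, none of them passing there. SPRY2 under RG7112 was 0.0074 with array weights, 0.054 after a further quantile normalization, 0.015 within replicates 1 to 3 and -0.0541 to 0.0486 with 1 array left out. SPRY1 under HDM201 was 0.19 within replicates 1 to 3 and -0.2493 to 0.0636 with 1 array left out. Between the compounds, array weights gave 0.024 for DUSP4, -0.072 for SPRY4 and -0.16 for ETV5. Replicates 1 to 3 alone gave -0.031 for DUSP5. Replicates 4 to 6 alone gave 0.017 for DUSP4, -0.12 for SPRY1, 0.0075 for SPRED1, -0.0079 for SPRED2, 0.072 for ETV4 and -0.049 for ETV5. The block without RG7112 replicate 3 gave 0.0046 for DUSP4, -0.0001 for SPRY4 and -0.14 for ETV5. With 1 array left out DUSP4 ran from -0.107 to 0.0567, DUSP5 from -0.0204 to 0.101, SPRY4 from -0.0825 to 0.226 and ETV5 from -0.231 to 0.284.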
